A study of Mus musculus with 21 samples.

Results

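The respiratory chain genes described here are the 114 genes of the deposited count table whose symbols mark a subunit, isoform or assembly factor of complexes I to V (Nduf, Sdha to Sdhd, Uqcr, Cox followed by a digit, Atp5, and the mt-Nd, mt-Co, mt-Atp and mt-Cytb genes). They were chosen by symbol alone from 45706 genes, and 5 symbols that end in ps or ps with a number (Atp5l-ps1, Atp5l-ps2, Atp5k-ps2, Atp5l2-ps and Cox20-ps) were left out. Of the 114, 101 lie in the nuclear genome and 13 in the mitochondrial genome. A filter on low counts kept 95 nuclear and all 13 mitochondrial genes among 15230 genes tested. The nuclear members comprised 44 genes for complex I (36 subunits and 8 assembly factors), 4 for complex II, 8 for complex III, 29 for complex IV (11 subunits, 9 assembly factors and 9 alternative isoforms or relatives) and 16 for complex V (15 subunits and the factor B gene Atp5s).

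Complexes I to IV pass electrons from NADH and succinate to oxygen. Of these, complexes I, III and IV pump protons across the inner mitochondrial membrane, and complex V, the ATP synthase, uses the proton gradient to make ATP. Complexes I, III, IV and V are built from subunits of both genomes, whereas complex II is encoded by nuclear genes alone. The mitochondrial mRNAs are cut from long polycistronic transcripts made inside the organelle by its own polymerase, and the nuclear subunit genes are known targets of NRF1, GABP (an ETS family factor), YY1 and the estrogen-related receptors.

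The 21 RNA-seq libraries come from mouse mammary fibroblast lines in culture and fall into 7 groups, each of 3 libraries. NF denotes the line NF1, from normal FVB/n mammary gland, and CAF denotes the line CAF1, from a mammary carcinoma of the MMTV-PyMT model, in which a mammary tumour virus promoter drives the polyoma middle T oncogene. Every group, controls included, received siRNA at 100 nM with DharmaFECT 1 at 60% confluence in medium with 10% serum, and RNA was taken 48 h later. NF received control siRNA with vehicle, or control siRNA, siHsp90aa1 or siHsp90ab1 with TGFb1 at 5 ng/mL, added 5 h after transfection and left for 43 h. CAF received control siRNA, siHsp90aa1 or siHsp90ab1, all with vehicle. Hsp90aa1 and Hsp90ab1 encode the alpha and beta forms of the cytosolic chaperone HSP90. With 1 line per origin, tumour origin and line cannot be told apart. Knockdown was never done in NF without TGFb1 or in CAF with it. The labels number the replicates as batches 1 to 3 and do not say that they are separate cultures, so the p-values cover the spread between libraries, which may be technical.

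Depth ranged from 35087180 to 70421576 counts per library. Replicates of a group differed beyond counting error, with a chi-square of 16.3 to 143 for each degree of freedom. Hsp90aa1 fell with its siRNA by 3.01 on the log2 scale in NF and by 3.31 in CAF, and Hsp90ab1 fell with its siRNA by 2.91 and 3.33. With siHsp90ab1 Hsp90aa1 stood at -1.06 ± 0.30 in NF (adjusted p = 0.0722 in edgeR) and -1.07 ± 0.30 in CAF (adjusted p = 0.123), and with siHsp90aa1 Hsp90ab1 stood at -0.16 and -0.24. The summed fibroblast marker genes stood at 7450 to 57800 CPM (counts per 1000000 counts of a library, scaled by TMM), but Thy1 was between 0 and 0.539 CPM in every NF library against 181 to 255 in CAF, and Lum was at most 1.31 CPM in any library. Beside every CAF against NF value stands a difference in other markers: epithelial genes summed to 0.4 to 0.579 CPM in NF vehicle and 5.58 to 22.2 in CAF control, nearly all Krt19, and endothelial genes to 0.305 to 0.596 and 3.56 to 6.44. Pericyte genes summed to 1.01 to 1.11 and 3.17 to 5.91, striated muscle genes to 0.215 to 0.286 and 0.836 to 1.47, adipocyte genes to 0.606 to 0.778 and 0.231 to 0.267, and fibroblast genes to 7450 to 9740 and 37600 to 45100. Their part in the results was not tested. In such bulk libraries, fewer cells with a transcript and less of it per cell cannot be told apart.

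Per unit of transcript length, the mitochondrial mRNAs stood far above the nuclear ones. In NF vehicle the median level of the 13 mitochondrial mRNAs was 3920 TPM (transcripts per 1000000, as deposited), from 290 for mt-Nd3 to 18300 for mt-Atp8. mt-Atp8 and mt-Atp6 overlap by 43 bases, mt-Nd4l and mt-Nd4 by 7, and mt-Nd5 and mt-Nd6, on opposite strands, by 14, so the split of reads within these pairs is uncertain. Among nuclear subunits the medians were 475 TPM for complex IV, 351 for complex V, 234 for complex III, 122 for complex I and 105 for complex II. Assembly factors, which help to build a complex and leave it, had median levels of 16.5 TPM for complex I and 25.6 for complex IV. The medians of complexes I, II, III and V in CAF control were close to these, at 124, 117, 228 and 337 TPM, and complex IV stood at 398 and the mitochondrial mRNAs at 2630 TPM. Some tissue-restricted isoforms were at the floor: Cox8b, Cox8c and Cox7b2 had 0 counts in both NF vehicle and CAF control, where a floor of 3 counts per group corresponds to 0.0191 and 0.0193 CPM, and Cox4i2 had 3 and 1 counts.

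Promoter sequence was examined for the factors named above in the 250 bases before the start of 83 nuclear members that matched the RefSeq table (GRCm38.p6), on both strands. The NRF1 letters (GCGCA, any base, then GCGC) were found in 14 members (16.9%) against 5.84% of 17492 coding genes. The ETS letters CCGGAAG were found in 16 members (19.3%) against 10.2%, the YY1 letters AAGATGG in 3 (3.61% against 4.77%) and the ERR letters TCAAGGTCA in 1 (1.20% against 0.360%). None of these motifs contains another, and a match is a description of the letters only. Shown are 3 windows, chosen after the values were seen as members that passed a test and hold a match: Ndufaf4, a complex I assembly factor that was lower in CAF, and Uqcr11 and Atp5l, subunits of complexes III and V that fell with TGFb1. The capitals mark the NRF1 letters in the first and the ETS letters in the others, read on the other strand in Atp5l. The Ndufaf4 window is at chr4:24897833-24898082 on the plus strand. The Uqcr11 window is at chr10:80406822-80407071 and the Atp5l window at chr9:44920743-44920992, both on the minus strand, each with 9 bases of annotated exon.
Ndufaf4: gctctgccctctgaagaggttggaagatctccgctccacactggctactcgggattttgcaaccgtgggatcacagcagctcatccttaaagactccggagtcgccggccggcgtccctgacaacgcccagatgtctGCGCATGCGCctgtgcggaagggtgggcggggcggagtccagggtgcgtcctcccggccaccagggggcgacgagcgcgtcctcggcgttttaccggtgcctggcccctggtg
Uqcr11: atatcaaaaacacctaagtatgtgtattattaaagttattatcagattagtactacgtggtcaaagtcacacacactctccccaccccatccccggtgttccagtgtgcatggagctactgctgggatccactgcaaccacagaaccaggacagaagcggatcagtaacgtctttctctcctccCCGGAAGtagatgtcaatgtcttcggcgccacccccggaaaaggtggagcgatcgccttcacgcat
Atp5l: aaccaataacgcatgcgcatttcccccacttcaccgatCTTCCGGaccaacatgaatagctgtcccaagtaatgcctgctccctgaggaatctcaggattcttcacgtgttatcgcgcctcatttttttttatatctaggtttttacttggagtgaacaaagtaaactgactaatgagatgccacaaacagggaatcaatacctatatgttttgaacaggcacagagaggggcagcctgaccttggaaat

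The mitochondrial mRNAs varied most within a single group. They took 4.23%, 2.51% and 2.14% of counts in NF vehicle replicates 1 to 3, and 2.76%, 2.17% and 1.89% with TGFb1. In the other 15 libraries the share lay between 1.62% and 2.40%, and in CAF control it was 1.73% ± 0.0834 (SD, n = 3). The share of the nuclear members was steadier, from 0.610% to 0.794% over all 21 libraries. The ratio of mitochondrial to nuclear member counts was 5.98 in NF vehicle replicate 1, 3.16 and 2.83 in replicates 2 and 3, and 2.54 to 2.66 in CAF control. NF vehicle replicate 1 stood above every other library and TGFb1 replicate 1 was next, and both carry the same replicate number.

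**Figure D1:**
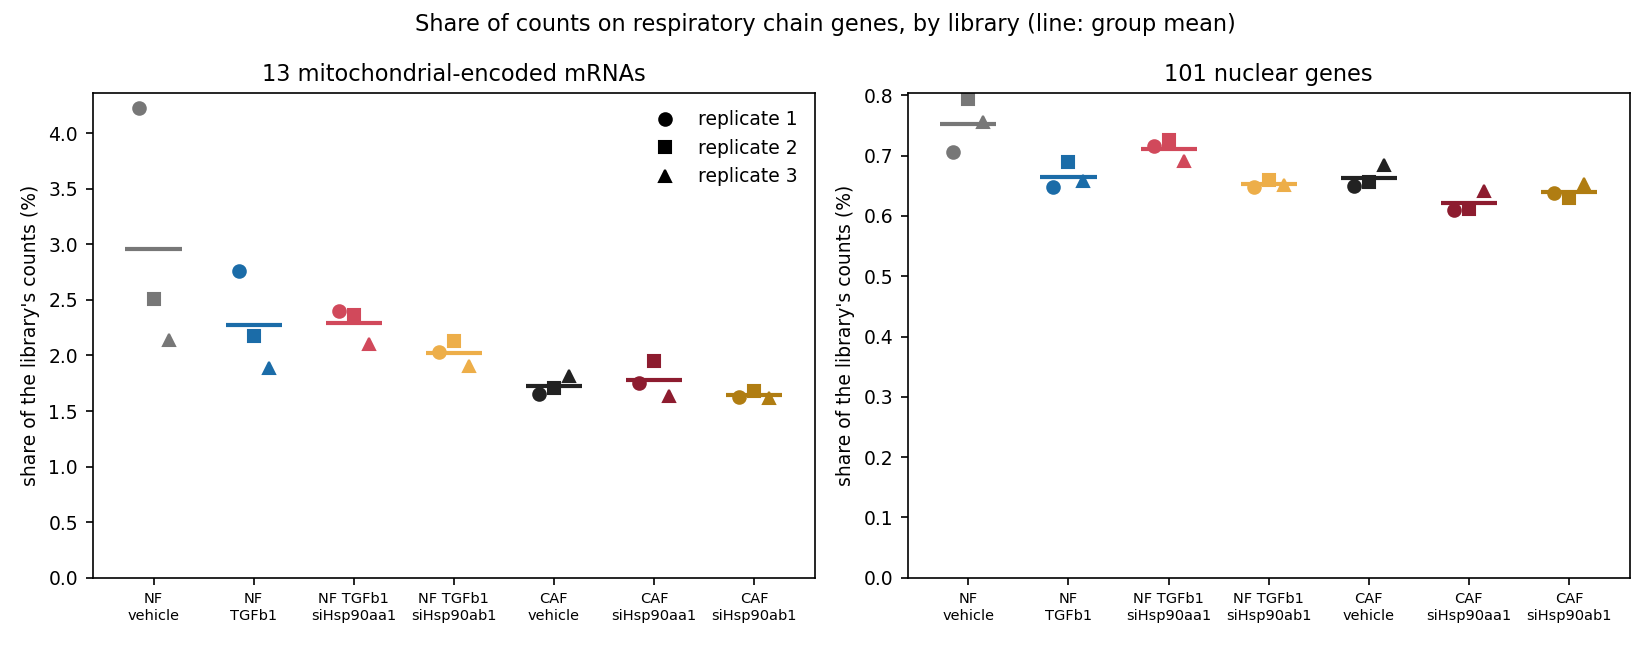
Share of counts (percent, vertical axis) taken by the 13 mitochondrial and by the 101 nuclear respiratory chain genes in each of the 21 libraries, grouped by condition, with 1 point per library. The mitochondrial share is 4.23% in NF vehicle replicate 1 and 1.62% to 2.76% in all others, while the nuclear share stays between 0.610% and 0.794%.

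All 13 mitochondrial mRNAs were higher in NF vehicle replicate 1 than the mean of replicates 2 and 3, by a median of 2.35-fold. The ratio differed between genes: it was 3.16 for mt-Nd4l, 2.89 for mt-Nd2, 2.64 for mt-Atp6, 2.60 for mt-Nd5 and 2.40 for mt-Co2, but 1.54 for mt-Co3, 1.44 for mt-Co1 and 1.36 for mt-Nd6, the only one annotated on the minus strand. In NF TGFb1 replicate 1 the same ratio had a median of 1.5 and was above 1 for 13 of 13. In the other 5 groups the median ratio of replicate 1 lay between 0.970 and 1.10. The nuclear members of NF vehicle replicate 1 had a median ratio of 0.981, yet they were scattered: 43 of 95 differed by more than 1.25-fold from the mean of the other replicates, against 13 in NF TGFb1 and 0 to 3 in the remaining groups. The SD of their log2 ratios was 0.411 in NF vehicle, 0.251 in NF TGFb1 and 0.0844 to 0.135 elsewhere. These ratios were not taken over all genes, so whether the scatter is particular to the members was not tested.

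Nuclear members were moved in both directions in NF vehicle replicate 1. Lowest were Atp5e, the epsilon subunit of the ATP synthase, at 0.554 of the other replicates, Ndufc2 at 0.583, Atp5g2 at 0.614 and Cox11 at 0.616. Highest were the low-count Cox6a2 at 2.06, then Cox20 at 1.89, Ndufa5 at 1.81 and Ndufa12 at 1.71. Sdhd, a membrane anchor of complex II, stood at 51.6, 79.3 and 78.6 CPM in NF vehicle and at 54.0, 66.6 and 67.2 with TGFb1, low in replicate 1 of both groups. Cox8a, a complex IV subunit, stood at 94.6, 152 and 130 CPM in NF vehicle. The library thus differed from its replicates in the levels of many nuclear members as well as in the mitochondrial share. Whether genes outside the members were scattered as much was not tested.

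**Figure D2:**
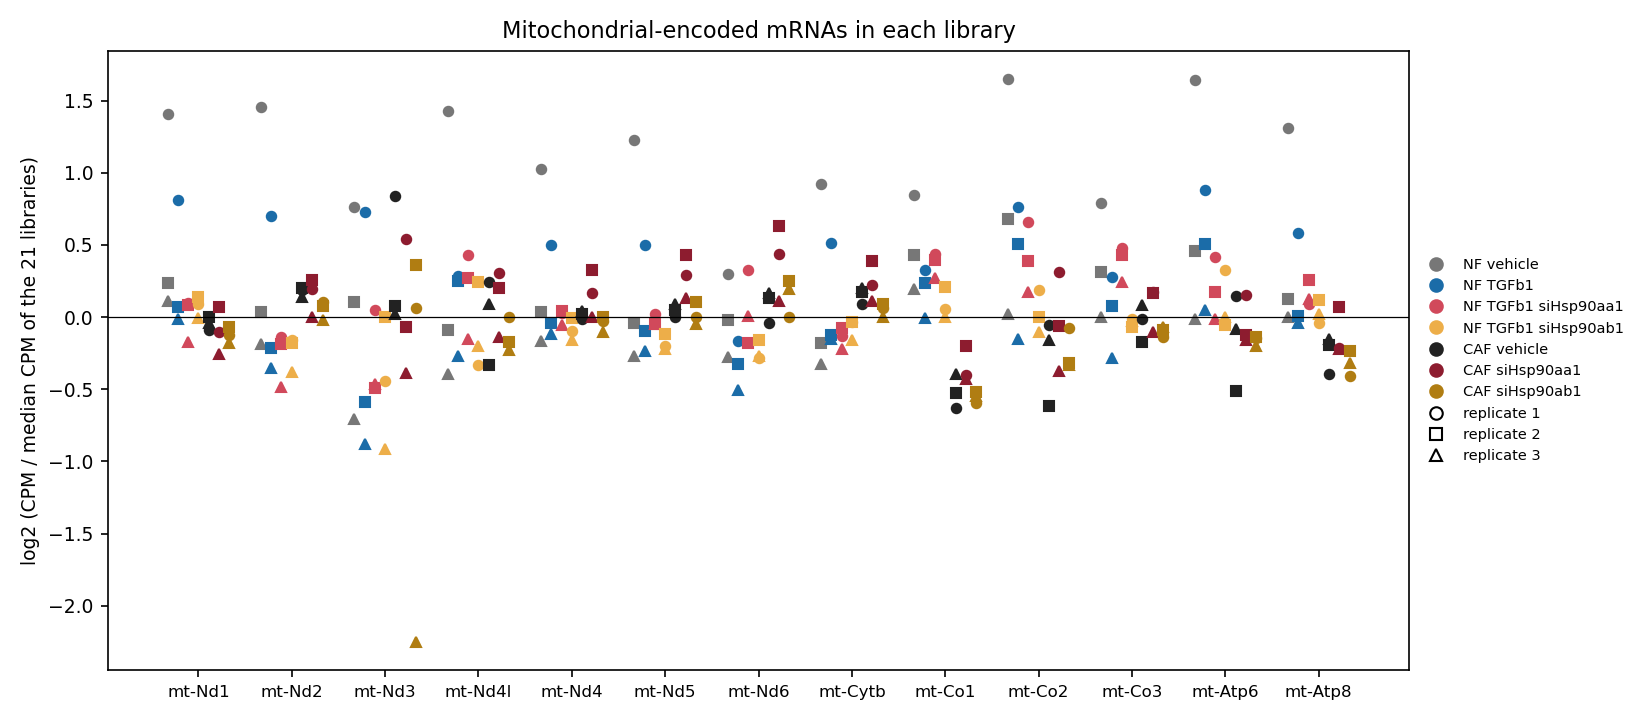
Level of each of the 13 mitochondrial mRNAs in each library as log2 of its CPM over its median across the 21 libraries (vertical axis), with colour for the group and marker shape for the replicate. NF vehicle replicate 1 stands high for most genes, and mt-Co1 is lower in all 9 CAF libraries than in all 12 NF libraries.

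The mitochondrial mRNAs mt-Co1 and mt-Co2 were lower in CAF than in NF under control siRNA and vehicle, and 4 more passed as lower only while NF vehicle replicate 1 was included. mt-Co1, the catalytic subunit of cytochrome c oxidase (chrM:5328-6872, plus strand), stood at 13780, 10340 and 8811 CPM in NF and at 4958, 5346 and 5840 in CAF. Every CAF library was below every NF library, and mt-Co1 was lower by -1.03 ± 0.13 (log2 fold change ± SE, adjusted p = 1.85e-06, edgeR quasi-likelihood test with Benjamini-Hochberg adjustment). mt-Co2, which takes electrons from cytochrome c, stood at 1969, 1004 and 637 CPM in NF and 605, 410 and 562 in CAF, a difference of -1.20 ± 0.31 (adjusted p = 0.00245), again without overlap. Such a lack of overlap held for 61.4% of all genes tested, 30.8% of the mitochondrial members and 55.8% of the nuclear ones. In all, 6 of 13 mitochondrial mRNAs passed as lower and 0 as higher, in a comparison in which 61.6% of all genes tested passed (31.6% higher and 30.0% lower). The others were mt-Atp8 (-0.85), mt-Atp6 (-0.996), mt-Nd1 (-0.75) and mt-Co3 (-0.44). The median over the 13 was -0.45, against -0.07 over the 95 nuclear members and -0.005 over all genes.

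The complex I and III mRNAs other than mt-Nd1 did not pass. mt-Cytb, the catalytic subunit of complex III (chrM:14145-15288), stood at 4617, 2144 and 1941 CPM in NF and 2595, 2743 and 2798 in CAF. The CAF libraries lay above NF replicates 2 and 3 and below replicate 1, and the log2 fold change was -0.10 ± 0.23. For mt-Nd5 the values were 4487, 1862 and 1589 CPM in NF and 1916, 1983 and 2041 in CAF, the same order. mt-Nd6 (chrM:13552-14070, minus strand) stood at 176, 141 and 118 CPM in NF and 139, 157 and 160 in CAF, with overlap and a value of 0.07. mt-Nd3, the least counted of the 13, had 0.19 ± 0.52.

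Much of this pattern rested on NF vehicle replicate 1. Without it, mt-Co1 (-0.83) and mt-Co2 (-0.64) still passed as lower, mt-Nd1, mt-Atp6, mt-Atp8 and mt-Co3 did not pass (mt-Co3 also not without CAF control replicate 2), and mt-Cytb passed as higher at 0.41; the median over the 13 was 0.08. Without NF vehicle replicate 3, in contrast, 10 passed as lower and the median was -0.76. Between libraries of the same replicate number, the median CAF minus NF difference of the 13 was -1.23 for replicate 1, -0.24 for replicate 2 and 0.21 for replicate 3. mt-Co1 and mt-Co2 were the mitochondrial mRNAs that passed as lower under each of the 11 alternatives, which include leaving out each of the 6 libraries.

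**Figure D3:**
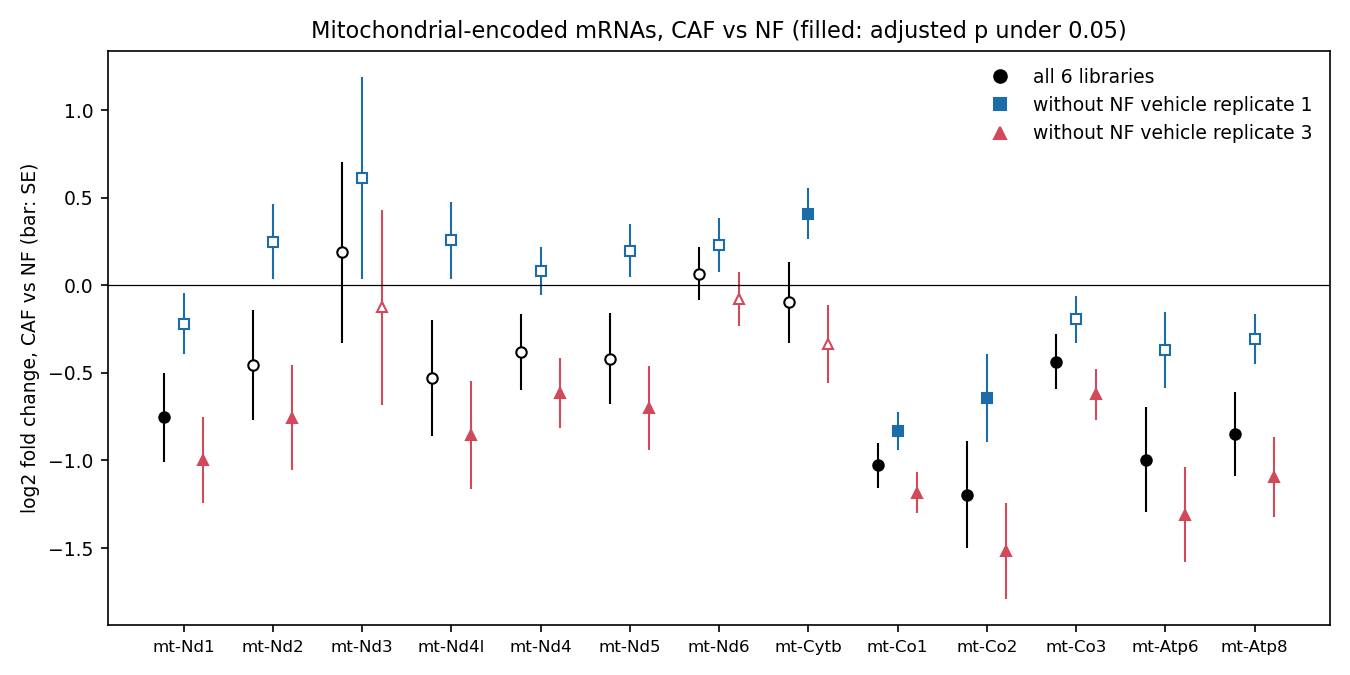
Log2 fold change of CAF over NF (vertical axis, control siRNA and vehicle) for the 13 mitochondrial mRNAs with all 6 libraries, without NF vehicle replicate 1 and without NF vehicle replicate 3; bars are SE and filled symbols passed at an adjusted p under 0.05. mt-Co1 and mt-Co2 lie below 0 and passed in all 3 fits. mt-Nd1, mt-Atp6, mt-Atp8 and mt-Co3 also lie below 0 in all 3 but did not pass without replicate 1. mt-Cytb moves from -0.10 to 0.41 without replicate 1.

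With TGFb1 in NF, 0 of 13 mitochondrial mRNAs passed in edgeR, where 29.0% of all genes did (14.6% higher and 14.4% lower). At an unadjusted p under 0.05 there were 3, and DESeq2 called 1, mt-Co1. All 13 log2 fold changes were negative, from -0.52 to -0.14, with a median of -0.36. With the replicate number as a block, mt-Co1 (-0.32) and mt-Co3 (-0.36) passed as lower. Without NF vehicle replicate 1 the median was 0.18, and mt-Co1 (-0.13), mt-Co3 (-0.12) and mt-Nd6 (-0.18) were the members with values below 0. Without NF vehicle replicate 3, 4 passed as lower (mt-Co1, mt-Co2, mt-Co3 and mt-Nd6), and without TGFb1 replicate 1, 3 did (mt-Nd2, mt-Co1 and mt-Co3). The median thus changed sign when 1 library was left out.

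No mitochondrial mRNA passed in edgeR with either knockdown. With siHsp90aa1, 0 of 13 passed in NF (2 at an unadjusted p under 0.05, 1 in DESeq2) and 0 in CAF (1 at an unadjusted p under 0.05, 0 in DESeq2). With the replicate block mt-Co3 (0.36) and mt-Nd6 (0.39) passed as higher in NF, and mt-Nd6 (0.50) passed without siHsp90aa1 replicate 2. The siHsp90aa1 median over the 13 in NF was -0.115 with library sizes from nuclear-genome genes. Without NF TGFb1 control replicate 1 it was 0.17. Between NF libraries of the same replicate number it was -0.47, 0.05 and 0.16 in replicates 1, 2 and 3. With siHsp90ab1, 0 passed in either line by edgeR or DESeq2 and 0 had an unadjusted p under 0.05, with medians of -0.23 in NF and -0.07 in CAF. The NF median with siHsp90ab1 rested on NF TGFb1 control replicate 1, without which it was 0.04. Between NF libraries of the same replicate number it was -0.59, 0.03 and 0.007 in replicates 1, 2 and 3. mt-Co1 stood at 9618, 9032 and 7647 CPM in NF with TGFb1, at 10400, 10110 and 9263 with siHsp90aa1, and at 7983, 8858 and 7683 with siHsp90ab1. The siHsp90aa1 and control groups overlapped. The siHsp90aa1 libraries were above the siHsp90ab1 ones, at 0.28 ± 0.13 (adjusted p = 0.103), where 52.4% of all genes had no overlap between these groups.

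Among nuclear members, 17 were higher and 32 lower in CAF than in NF, that is 49 of 95, against 61.6% of all genes. The lower ones were spread over all 5 complexes: 11 of 36 complex I subunits, 1 of 4 of complex II, 3 of 8 of complex III, 5 of 11 of complex IV and 5 of 15 of complex V. The higher ones were 7 complex I subunits, 2 complex IV subunits, 1 complex I and 3 complex IV assembly factors, 3 alternative isoforms or relatives and Atp5s. Without CAF control replicate 3, 11 passed as higher, where 57.6% of all genes passed.

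The structural subunits with the smallest p were lower. Cox4i1, the common isoform of the regulatory subunit 4 of cytochrome c oxidase, stood at 259, 264 and 237 CPM in NF and 166, 163 and 173 in CAF, lower by -0.60 ± 0.06 (adjusted p = 8.54e-08). Atp5f1, the peripheral stalk subunit b of the ATP synthase, stood at 216, 178 and 183 CPM in NF and 113, 114 and 114 in CAF, lower by -0.76 ± 0.07 (adjusted p = 4.49e-08). In both, all CAF libraries lay below all NF libraries, in a comparison where the groups did not overlap for 61.4% of all genes. Atp5o, which links stalk and catalytic head, was lower by -0.40 ± 0.05. Sdhb, the iron-sulphur subunit of complex II, stood at 74.9, 74.6 and 69.2 CPM in NF and 51.4, 53.3 and 55.6 in CAF, lower by -0.45 ± 0.06 (adjusted p = 1.87e-06). The other complex II genes did not pass: the flavoprotein gene Sdha had 0.11 ± 0.06, and the membrane anchor genes Sdhc and Sdhd had 0.19 ± 0.11 and 0.23 ± 0.12. Uqcr10 of complex III stood at 57.4, 83.0 and 73.5 CPM in NF and 40.3, 41.4 and 45.3 in CAF, lower by -0.75 ± 0.11. Cox6c (-0.51) and Cox7b (-0.45) of complex IV were lower as well.

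Assembly factors moved in both directions. Cox16, which acts in cytochrome c oxidase assembly (chr12:81359026-81485127, minus strand), stood at 4.06, 3.82 and 3.74 CPM in NF and 17.3, 17.6 and 17.0 in CAF, higher by 2.16 ± 0.09 (adjusted p = 1.47e-12). It shares 2130 exon bases with the readthrough gene Gm20498 on the same strand, which stood at 3.46 to 5.20 CPM in NF and 6.46 to 6.69 in CAF, so the split of reads between them is uncertain. Ndufaf3, a complex I assembly factor, stood at 2.27, 2.36 and 2.73 CPM in NF and 5.25, 5.28 and 6.91 in CAF, higher by 1.246 ± 0.19. The groups did not overlap for either gene, as for 61.4% of all genes. The other complex I assembly factors that passed were lower: Ndufaf4 (-0.52), Ndufaf5 (-0.50), Atp5sl (-0.42), Ndufaf6 (-0.41) and Ndufaf1 (-0.40), of which Ndufaf6 did not pass without NF vehicle replicate 2 or with no filter on low counts. Of those for complex IV, Cox19, a copper-handling protein, was higher (0.39) and Cox15 (-0.49) and Cox10 (-0.44), enzymes of haem a synthesis, were lower.

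Complex I subunits split between directions. Ndufs3, a core subunit, stood at 35.4, 44.8 and 40.9 CPM in NF and 53.7, 56.5 and 60.4 in CAF, higher by 0.50 ± 0.08. The accessory subunit Ndufa3 was higher by 0.51 ± 0.11. The lower ones included Ndufb5 (-0.39), Ndufa6 (-0.40) and the core subunits Ndufs7 (-0.30), Ndufv2 (-0.25) and Ndufs1 (-0.16), the last not passing with no filter on low counts. The range over the 36 was -0.48 to 0.51.

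Among isoform pairs, Cox6b1 (-0.35) and Ndufa4 (-0.30) were lower, and Cox6a1 (0.07) and Cox7a2 (0.06) did not pass. Cox7a2l, which joins complexes III and IV into supercomplexes, passed as higher (0.37), but had 0.17 without CAF control replicate 3 and did not pass without NF vehicle replicate 2 or 3 either. Cox8a (0.30) was called with all libraries and lost its call when any of 5 of the 6 libraries was left out, with 0.13 without NF vehicle replicate 1. The muscle form Cox6a2 was higher by 2.33 ± 0.60, from levels of at most 0.116 CPM in NF to between 0.231 and 0.688 in CAF, where the summed striated muscle genes were also higher, as given above. Ndufa4l2, a hypoxia-inducible relative of Ndufa4, had 0 counts in the 3 NF vehicle libraries and 26 in the CAF control libraries, at least 8.79-fold higher when the NF group is set to a floor of 3 counts in all. Cox7a1, another muscle form, was filtered out with 0 counts in NF vehicle and 36 in CAF control.

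**Figure D4:**
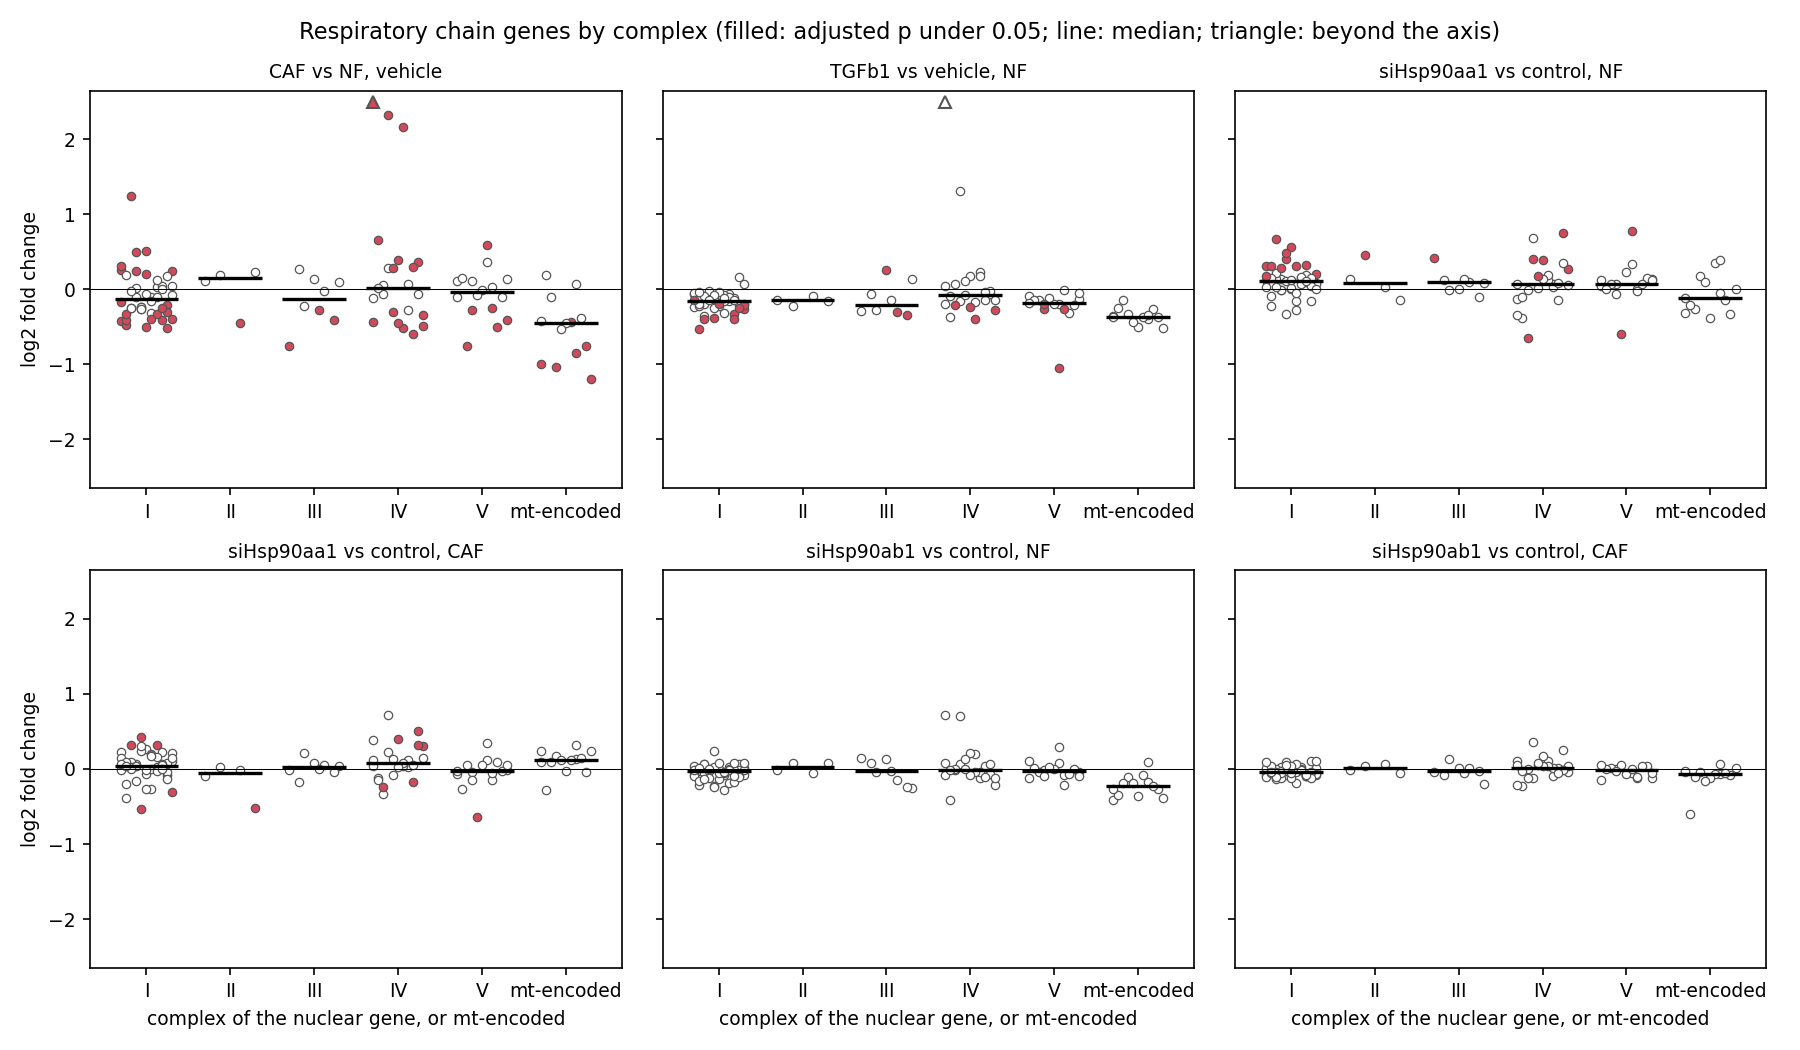
Log2 fold changes (vertical axis) of each tested respiratory chain gene, by complex and genome, in 6 comparisons; filled points passed at an adjusted p under 0.05, horizontal lines are medians, and triangles mark values beyond the axis limit of 2.5. Nuclear members lie mostly below 0 with TGFb1 (median -0.15) and mostly above 0 with siHsp90aa1 in NF (median 0.09).

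Nuclear members fell with TGFb1 in NF more often than they rose, by small amounts. Of 95, 20 fell and 1 rose (29.0% of all genes passed), and 83 had a negative log2 fold change, with a median of -0.15 against -0.03 over all genes. Between libraries of the same replicate number the nuclear median was -0.14, -0.15 and -0.14 in replicates 1, 2 and 3. Marker sums differed between the same libraries. With TGFb1 the fibroblast genes summed to 16200 to 21800 CPM, striated muscle genes to 1.41 to 2.40, pericyte genes to 3.06 to 4.74 and epithelial genes to 0.968 to 1.62, all above the NF vehicle ranges given earlier, and adipocyte genes to 0.0909 to 0.157, below them. Their part in the result was not tested. Among complex I subunits 10 of 36 fell and 35 of 36 were negative. In complex V 3 of 15 subunits fell and all 15 were negative, in complex IV 3 of 11 fell, in complex III 2 of 8 fell and 1 rose, and in complex II all 4 were negative and 0 passed. That 0 rested on NF vehicle replicate 1, without which Sdhc (-0.36) and Sdhd (-0.34) passed as lower, and DESeq2 called Sdha (-0.14).

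The members with the smallest p were from complexes IV and V. Cox6c stood at 169, 129 and 132 CPM with vehicle and at 111, 109 and 107 with TGFb1, and fell by 0.40 ± 0.08 on the log2 scale (adjusted p = 0.000762). Atp5c1, the gamma subunit that forms the rotor axle of the ATP synthase, stood at 224, 217 and 208 CPM and then 186, 178 and 178, and fell by 0.26 ± 0.06 (adjusted p = 0.00167). Atp5s, the low-level factor B gene, stood at 2.12, 1.64 and 1.47 CPM and then 1.04, 0.600 and 0.890, and fell by 1.05 ± 0.24. In all 3 genes the groups did not overlap, and these were the members called under all 11 alternatives. With TGFb1 the groups did not overlap for 38.9% of all genes and 27.4% of the nuclear members. Ndufb4 (-0.27), an accessory subunit of complex I, and Atp5k (-0.27), the e subunit of the ATP synthase, were lost with no filter on low counts alone. Ndufc1 fell by 0.40 ± 0.11, Uqcr11 by 0.30 ± 0.08 and Atp5l by 0.20 ± 0.06. Ndufc1 did not pass without TGFb1 replicate 1, Uqcr11 without NF vehicle replicate 2 or TGFb1 replicate 3, and Atp5l without NF vehicle replicate 1 or TGFb1 replicate 3 or with no filter on low counts.

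Uqcrq, the ubiquinone-binding small subunit of complex III, was the member that rose. It stood at 72.5, 87.8 and 72.0 CPM with vehicle and at 87.1, 99.7 and 91.3 with TGFb1, an overlap of the groups, with a log2 fold change of 0.26 ± 0.07. It had 0.20 without NF vehicle replicate 3 and 0.19 without TGFb1 replicate 2 and did not pass in either case.

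Which members passed depended on single libraries more than the direction did. Without TGFb1 replicate 3, where 21.4% of all genes passed, 8 nuclear members passed as lower. Without NF vehicle replicate 1, 30 did, and 12 of the 21 members called with all libraries were among those called. The median over nuclear members lay between -0.19 and -0.14 under each of the 6 omissions.

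siHsp90aa1 in TGFb1-treated NF gave the opposite balance, and the control libraries of this comparison are the treated ones of the TGFb1 comparison, so the signs are tied. Of 95 nuclear members 19 rose and 2 fell, where 28.3% of all genes passed (14.8% higher and 13.5% lower). The log2 fold change was positive for 73 of 95, with a median of 0.09 against 0.006 over all genes. The 19 comprised 10 of 36 complex I subunits, 4 of 9 complex IV assembly factors, Sdhc, Uqcr10, Ndufa4, Ndufaf3 and Atp5s. With siHsp90aa1 the summed striated muscle (0.797 to 0.845 CPM), pericyte (2.03 to 2.94) and epithelial genes (0.624 to 0.897) lay below their TGFb1 control ranges, and endothelial (1.03 to 1.47) and adipocyte genes (0.181 to 0.217) above them, and their part was not tested. Without NF TGFb1 control replicate 1, 8 passed as higher, without siHsp90aa1 replicate 2, 10, and without siHsp90aa1 replicate 1 or 3, 12. In these fits 18.8% to 24.5% of all genes passed.

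Cox18, which inserts part of mt-Co2 into the inner membrane, stood at 18.5, 21.1 and 21.8 CPM with control siRNA, at 34.95, 32.2 and 36.1 with siHsp90aa1 and at 18.6, 19.1 and 21 with siHsp90ab1. The siHsp90aa1 libraries stood above all others of NF with TGFb1, and Cox18 rose by 0.75 ± 0.11 (adjusted p = 0.000121). Ndufa3 stood at 10.5, 12.6 and 13.1 CPM and then 17.3, 18.5 and 17.8, a rise of 0.57 ± 0.11. Sdhc stood at 45.1, 56.6 and 56.0 CPM and then 75.9, 69.8 and 70.8, a rise of 0.46 ± 0.11. These and Ndufv3 (0.48), Ndufa7 (0.41), Cox19 (0.39) and Ndufb5 (0.31) rose in every alternative run.

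Both nuclear members that fell did so in every alternative. Atp5j, coupling factor 6 of the ATP synthase stalk (chr16:84827866-84835625, minus strand), stood at 58.1, 59.2 and 58.0 CPM with control siRNA, 36.1, 37.6 and 42.5 with siHsp90aa1, and 60.1, 60.2 and 58.9 with siHsp90ab1. It fell by 0.59 ± 0.07 (adjusted p = 8.98e-06), with no overlap of siHsp90aa1 and control, as for 46.7% of all genes and 38.9% of the nuclear members. Its exons share 397 bases with Gabpa on the opposite strand, and whether the counting used strand is not given in the sources used here; Gabpa itself had -0.27 (adjusted p = 0.0931). Cox17, the copper chaperone that supplies cytochrome c oxidase, stood at 31.9, 29.4 and 25.4 CPM and then 16.7, 18.3 and 20.2, and fell by 0.65 ± 0.14 (adjusted p = 0.00184). It shares 257 exon bases with Gm21987 on the same strand, so the split of reads between them is uncertain.

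With siHsp90aa1 in CAF, 8 of 95 nuclear members rose and 6 fell, where 25.4% of all genes passed (12.5% higher and 12.9% lower). With DESeq2 size factors in edgeR the split was 6 higher and 8 lower. The median was 0.04, close to the 0.03 of all genes. The number higher depended on single libraries: it was 1 without siHsp90aa1 replicate 3, 4 and 5 without siHsp90aa1 replicates 2 and 1, and 3 and 2 without control replicates 1 and 2. The number lower was 5 or 6 in each of these, where 15.8% to 21.5% of all genes passed. The summed fibroblast (53000 to 57800 CPM) and endothelial genes (6.83 to 9.36) lay above their CAF control ranges, and their part was not tested.

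Atp5j again had the smallest p. It stood at 61.0, 58.4 and 61.1 CPM with control siRNA and 41.5, 37.6 and 36.9 with siHsp90aa1, and fell by 0.64 ± 0.07 (adjusted p = 5.63e-06), while Gabpa had -0.04. Sdhd stood at 85.4, 79.6 and 80.8 CPM and then 59.8, 57.4 and 54.8, and fell by 0.52 ± 0.12 (adjusted p = 0.00413). In both genes the groups did not overlap, as for 40.4% of all genes and 46.3% of the nuclear members. Timm8b, whose start lies 98 bases from that of Sdhd in the opposite direction, had -0.07. Sdha (-0.10), Sdhb (-0.01) and Sdhc (0.03) did not pass. Ndufs4, an accessory subunit of the complex I NADH-oxidising arm, fell by 0.30 ± 0.08 and Cox7a2 by 0.23 ± 0.06. Atp5j, Sdhd, Ndufs4 and Cox7a2 passed in each of the 11 alternatives.

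Ndufc2 fell by 0.53 ± 0.16 from 23.7, 22.1 and 24.6 to 16.3, 16.3 and 16.2 CPM, and did not pass without siHsp90aa1 replicate 3 (-0.54). Cox4i1 (-0.17) passed with all libraries and in 5 of the 11 alternatives. Among the higher members Cox19 rose by 0.40 ± 0.08 in every alternative. Cox7a2l stood at 90.9, 92.2 and 129 CPM and then 135, 142 and 166, with control replicate 3 high within its group, and rose by 0.50 ± 0.14. Its call was lost without control replicate 1 or 2 or siHsp90aa1 replicate 3, at 0.40 to 0.41. Ndufa13 (0.31), Ndufv3 (0.42) and Cox15 (0.30) were also lost under some omissions.

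The siHsp90aa1 comparisons in NF and in CAF share no library. Of the 21 nuclear members called in NF and the 14 called in CAF, 6 were called in both in the same direction, which is 28.6% of the first list and 42.9% of the second. Over all genes tested, the genes called in both in the same direction were 43.1% of those called in NF and 48.0% of those called in CAF. These were Atp5j, which fell, and Cox15, Cox18, Cox19, Ndufb5 and Ndufv3, which rose. Of these, Atp5j and Cox19 passed in both lines under every alternative. When the difference of the effects between lines was tested, 0 members passed in edgeR, where 5.46% of all genes did (2.44% higher and 3.02% lower). There were 9 at an unadjusted p under 0.05, DESeq2 called 3 as lower in CAF, and with the replicate block Sdha (-0.24) and Ndufaf3 (-0.58) passed. Sdhd, at -0.14 in NF and -0.52 in CAF, and Cox17, at -0.65 and -0.34, are therefore not shown to respond differently in the lines.

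**Figure D5:**
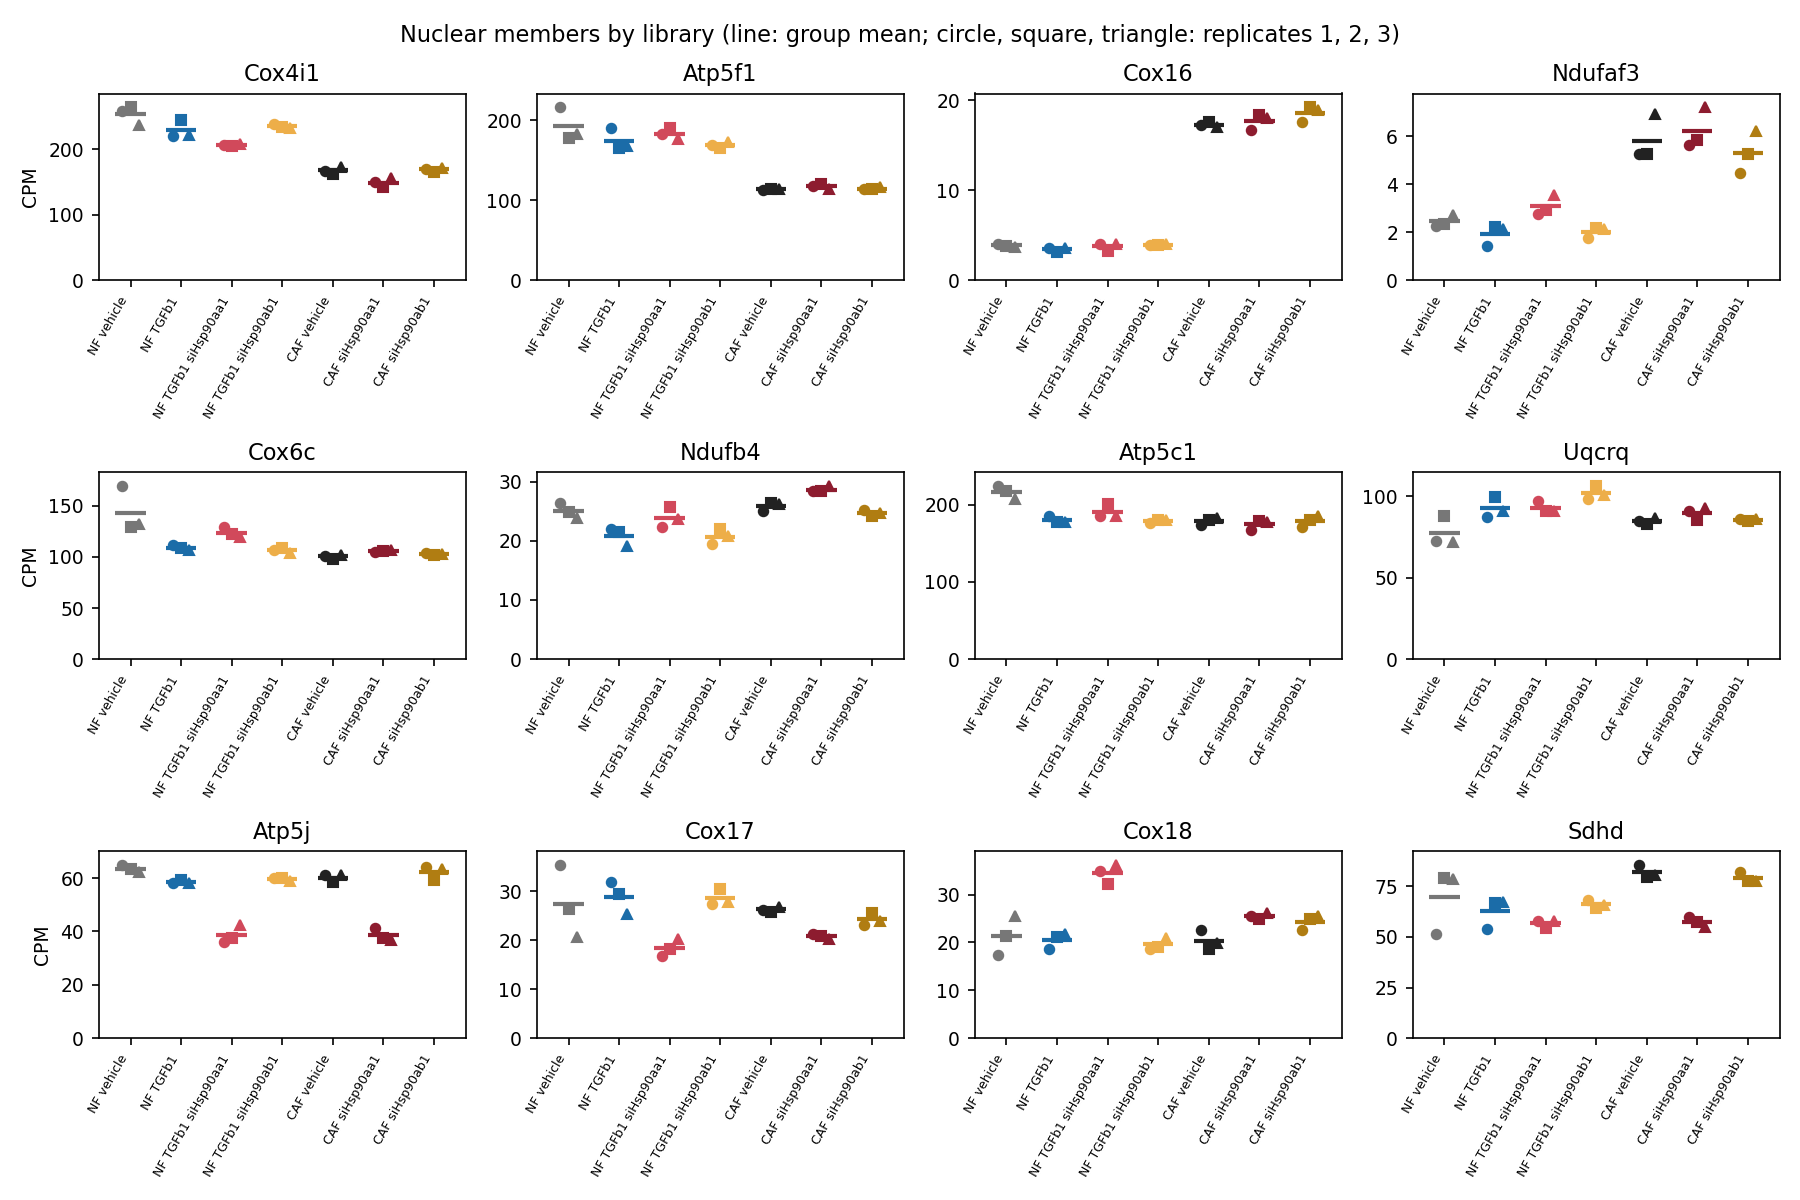
Level in CPM (vertical axes from 0) of 12 nuclear respiratory chain genes in each library, grouped by condition, with 1 point per library and a bar at the group mean. Atp5j sits at 36.1 to 42.5 CPM in all 6 siHsp90aa1 libraries and at 58.0 or above in all 15 others.

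siHsp90ab1 gave 0 called members in edgeR in either line, where 2.69% of all genes passed in NF (1.06% higher and 1.62% lower) and 0.900% in CAF (0.466% and 0.433%). At an unadjusted p under 0.05 there were 6 nuclear members in NF and 3 in CAF, and DESeq2 called 2 and 1. The replicate block called 1 in NF, Uqcrc1 (-0.25), a core protein of complex III, and 0 in CAF. The nuclear medians were -0.02 in NF and -0.03 in CAF. The difference of the siHsp90ab1 effect between lines had 0 members passing in edgeR, 0 at an unadjusted p under 0.05 and 0 in DESeq2, where 0.00657% of all genes passed in edgeR.

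The direct comparisons set the knockdowns against each other, with Hsp90aa1 also at -1.06 and -1.07 with siHsp90ab1 as given above. In NF with TGFb1, without any control siRNA library, siHsp90aa1 gave higher levels than siHsp90ab1 for 28 nuclear members and lower for 5, where 34.1% of all genes passed (17.7% higher and 16.4% lower). The median was 0.15, 77 of 95 were positive, and 16 of 36 complex I subunits were higher with 1 lower. The number higher was 11 without siHsp90ab1 replicate 1, 16 without siHsp90ab1 replicate 2 and 15 without siHsp90aa1 replicate 2. The number lower was 2 without siHsp90aa1 replicate 1 and 3 without siHsp90ab1 replicate 1. In these fits 24.9% to 27.4% of all genes passed. Cox18 (0.81), Ndufv3 (0.72), Ndufa3 (0.56), Cox15 (0.49) and Uqcrc1 (0.34) were higher and Atp5j (-0.63) and Cox17 (-0.64) lower in every alternative. mt-Co3 was higher by 0.43 ± 0.16 (adjusted p = 0.0429), and lost its call when any of 5 of the 6 libraries was left out, as the exception among the 13 mitochondrial mRNAs.

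In CAF the direct comparison gave 11 higher and 7 lower, where 26.3% of all genes passed (13.1% higher and 13.3% lower). Atp5j (-0.69), Ndufc2 (-0.63), Sdhd (-0.47) and Ndufs4 (-0.40) were lower in every alternative. Among the higher ones Cox7a2l (0.52) did not pass without siHsp90aa1 replicate 3, and Cox15 (0.34) did not pass without siHsp90ab1 replicate 1. The number higher was 1 without siHsp90aa1 replicate 3, 2 without siHsp90ab1 replicate 1 or 2, and 6 or 7 without siHsp90aa1 replicate 1 or 2. Without siHsp90ab1 replicate 1, 4 passed as lower. In these fits 16% to 22.2% of all genes passed.

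Factors that direct or serve respiratory chain expression were counted beside the members. Of 10 regulators, 3 were higher and 6 lower in CAF than NF, where 61.6% of all genes passed. Ppargc1b, a coactivator of mitochondrial biogenesis, stood at 5.30, 5.66 and 4.06 CPM in NF and 0.147, 0.260 and 0.478 in CAF (-4.10 ± 0.35). Myc was lower by -1.36 and Yy1 higher by 0.65. With TGFb1 Esrra rose by 0.96 ± 0.16 and Ppargc1a fell by 1.79 ± 0.47, from 8.31, 2.25 and 3.47 to 1.42, 0.891 and 1.78 CPM, a call lost without NF vehicle replicate 1 (-1.08). With siHsp90aa1 in NF 4 regulators fell and 0 rose (28.3% of all genes passed), among them Nrf1 (-0.46 ± 0.07), Gabpb1 (-0.50 ± 0.09) and Pprc1 (-0.32 ± 0.09), and in CAF, where 25.4% of all genes passed, 1 fell, Nrf1 (-0.26 ± 0.07). Pprc1 did not pass without siHsp90aa1 replicate 1, and Nrf1 in CAF did not pass without control replicate 1 or 2 or siHsp90aa1 replicate 2.

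Genes for mitochondrial gene expression and protein synthesis were more often lower than higher in CAF, where 30.0% of all genes passed as lower and 31.6% as higher. Of 26 genes for mitochondrial transcription and RNA processing, 15 were lower and 3 higher, led by the RNA-degrading enzyme Pnpt1 (-2.51 ± 0.11), Tbrg4 (-1.39 ± 0.09) and Elac2 (-0.72 ± 0.08), an RNase that releases tRNAs from the polycistron. Of 77 genes for mitochondrial ribosomal proteins, 41 were lower and 8 higher. The share of these that passed, 63.6%, was near the 61.6% of all genes, with 53.2% lower against 30.0% of all genes. Those named by the smallest p were Mrpl38 (-1.02), Mrpl13 (-0.94) and Mrpl45 (-0.71). Of 14 genes of membranes and metabolism that track mitochondrial amount, 9 were lower and 1 higher, among them Phb (-0.67), Immt (-0.57) and Vdac3 (-0.46). With TGFb1 the same 3 lists gave 3 lower and 1 higher, 21 lower and 2 higher, and 6 lower and 1 higher, where 14.4% of all genes passed as lower and 14.6% as higher. Their leading genes were Hsd17b10 (-0.80), Mrpl30 (-0.46) and Vdac1 (-0.19), the last not passing with no filter on low counts.

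With siHsp90aa1 the same lists moved in both directions. In NF, where 28.3% of all genes passed, genes of mitochondrial RNA gave 3 higher and 6 lower, ribosomal proteins 9 higher and 5 lower, and mitochondrial amount 0 higher and 1 lower. In CAF, where 25.4% did, the counts were 1 and 3, 2 and 12, and 1 and 3. Grsf1, an RNA granule protein, fell by 0.49 ± 0.06 in NF and 0.37 ± 0.06 in CAF. Mrpl12, a ribosomal protein that also binds the mitochondrial polymerase, stood at 74.9, 74.3 and 65.3 CPM with control and 45.0, 51.0 and 53.1 with siHsp90aa1 in NF, and at 67.9, 64.5 and 58.0 and then 42.0, 37.6 and 38.6 in CAF. It fell by 0.53 ± 0.09 and 0.69 ± 0.09, without overlap in either line, as for 46.7% of all genes in NF and 40.4% in CAF. Tfam, which packages mitochondrial DNA and starts its transcription, fell by 0.32 ± 0.08 in NF and 0.37 ± 0.08 in CAF.

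Assembly factors with other symbols passed about as often as all genes with siHsp90aa1, but mostly as higher. Of 33, 8 rose and 1 fell in NF, which is 27.3% against 28.3% of all genes. In CAF 8 rose and 0 fell, 24.2% against 25.4%. Over all genes 14.8% passed as higher and 13.5% as lower in NF, and 12.5% and 12.9% in CAF. Bcs1l, which inserts the Rieske protein into complex III, stood at 7.20, 8.40 and 7.90 CPM with control and 12.7, 13.1 and 12.2 with siHsp90aa1 in NF, and at 9.27, 9.86 and 12.1 and then 15.1, 15.98 and 16.8 in CAF. It rose by 0.69 ± 0.10 and 0.62 ± 0.10, and all siHsp90aa1 libraries lay above all control libraries of their line. These groups did not overlap for 46.7% of all genes in NF and 40.4% in CAF. With siHsp90ab1 the lists held few calls: Pnpt1 (-0.77), Vdac3 (0.24) and Mrpl33 (0.23) in NF, where 2.69% of all genes passed, and Chchd3 (0.33) and Uqcc1 (0.33) in CAF, where 0.900% did. Of these, Pnpt1 passed in every alternative and the other 4 lost their calls when any of 4, 5 or 6 of the 6 libraries was left out. In CAF against NF, where 61.6% of all genes passed (31.6% higher and 30.0% lower), the list of assembly factors gave 7 higher and 12 lower, with Acad9 (-0.66) and Surf1 (0.62) among them. With TGFb1, where 29.0% of all genes passed (14.6% higher and 14.4% lower), it gave 2 higher and 8 lower, with Pet100 (-0.92), Uqcc2 (-0.56) and Tmem70 (0.56). Subunits and carriers with other symbols, 7 genes, gave 3 higher and 1 lower in CAF against NF, led by 2010107E04Rik (0.84), and 0 of each with TGFb1 and with siHsp90aa1 in NF. With siHsp90aa1 in CAF, Higd1a fell by 0.36 ± 0.09 and Higd2a had 0.28 ± 0.08, a call lost without control replicate 2 or siHsp90aa1 replicate 1 or 3.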

How the data were processed

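The authors deposited estimated counts per gene, unnormalised, and TPM values scaled by transcript length. STAR, Salmon and GRCm38 are named per the submitters' processing notes, without versions or parameters, and the strand setting of the counting is not given in the sources used here. Some named members share exon bases with a gene on the opposite strand, among them Cox20 (804 with Hnrnpu), Ndufb5 (616 with Mrpl47), Cox15 (444 with Entpd7) and Atp5f1 (337 with Wdr77). Whether reads of these neighbours entered their counts was not tested. Of the count values 10.9% were not whole, and rounding moved a value by at most 0.5. TPM served only to compare levels between genes. Libraries were grouped by title.

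Counts were tested in edgeR 4.0.16 (R 4.3.3, limma 3.58.1) with TMM factors, filterByExpr (minimum count 10, minimum total 15), 1 coefficient per group over all 21 libraries, quasi-likelihood F tests and Benjamini-Hochberg adjustment per comparison at 0.05. There were 10 comparisons. The standard error is the size of the log2 fold change over the square root of F, with a prior count of 0.125. The steps were run on simulated counts with the same spread for every gene, no replicate effect and no outlying library. These data differ from that setting, so the run gives no assurance on such features. Replicate numbers are labelled as batches: same-numbered libraries of different groups had deviations correlated at a mean of 0.340 (56 of 63 pairs over 0.1), others at -0.164. The deviations of a group's 3 libraries sum to 0, so the second value follows largely from the first and is no separate contrast.

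Members and lists were chosen with earlier results of these data known. Named by rule were the 13 mitochondrial genes, complex II, the isoform sets, the 5 members of smallest p in each direction per comparison, those beyond 1 on the log2 scale, and 3 genes per other list; further members were named after their values were seen. Prorp, Twnk and Fmc1 of the lists were not found in the table by symbol. Alternatives were DESeq2 1.42.0, its size factors in edgeR, no filter, library sizes from nuclear-genome genes, a replicate block and leaving out each library.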

Additional observations from a re-analysis of the deposited data

Results flagged for a closer look

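None of the respiratory chain genes passed edgeR's test of a difference between the lines in the siHsp90aa1 effect. Of these genes, 9 had an unadjusted p under 0.05. In the related lists, 4 genes passed the same test (CAF minus NF with TGFb1, adjusted over all 15230 genes). Among all genes, 5.46% passed it (2.44% higher and 3.02% lower). Whether the genes of the lists passed more often than all genes was not tested. For Cmc2, a complex IV assembly factor, the difference was -0.61 (adjusted p = 0.0176, and 0.00155 to 0.0561 over the alternatives), from 0.39 in NF and -0.22 in CAF. For Mrps6, a mitochondrial ribosomal protein, it was -0.70 (adjusted p = 0.0321, and 0.0012 to 0.0993 over the alternatives), from 0.20 and -0.50. For Mrpl14, another, it was -0.44 (adjusted p = 0.0363, and 0.00457 to 0.102 over the alternatives), from 0.33 and -0.11. For Hsd17b10, a subunit of mitochondrial RNase P, it was -0.40 (adjusted p = 0.0471, and 0.00736 to 0.126 over the alternatives), from 0.48 and 0.08. Cmc2 did not pass without NF siHsp90aa1 replicate 1 (-0.56), and the other 3 did not pass when any of several libraries was left out. TGFb1 was present in NF and absent in CAF, so line and TGFb1 cannot be told apart in these differences.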

How the results depend on the processing

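Over the alternatives 4522 of 4736 values of named genes kept their side of the threshold, and 435 of 488 counts stayed within 1.5 times. Values that passed in neither fit were counted as kept even where their sign changed. Counts of 0 in both fits were also taken as kept. With all libraries every count of members was 0 for siHsp90ab1 and for the differences between lines. Part of the 435 is therefore 0 against 0 and says little on stability. One value changed sign past the threshold, mt-Cytb in CAF against NF, at 0.41 without NF vehicle replicate 1 (-0.34 without replicate 3). With no filter on low counts, fewer nuclear members passed: 9 lower with TGFb1, 12 higher with siHsp90aa1 in NF and 4 in CAF, 16 higher and 3 lower for siHsp90aa1 against siHsp90ab1 in NF, and 4 higher in CAF; the cause was not tested. DESeq2 called 1 mitochondrial mRNA lower with TGFb1 and 1 higher with siHsp90aa1 in NF, 2 and 1 nuclear members lower with siHsp90ab1 in NF and CAF, 13 lower with siHsp90aa1 in CAF, and 3 lower for the difference between lines; the cause was not tested. With the replicate block these counts were 2 mitochondrial mRNAs lower with TGFb1, 2 higher with siHsp90aa1 in NF, 1 nuclear member lower with siHsp90ab1 in NF and 2 lower for the difference between lines. The pairing changed no other count of members by over 1.5 times. Over all genes, siHsp90ab1 gave 409 calls in NF and 137 in CAF, against 709 and 322 in DESeq2 and 902 and 360 with the block. The difference of the siHsp90aa1 effect gave 832, 1341 and 1871, and that of siHsp90ab1 1, 18 and 3.

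Leaving out each library gave these ranges. The share of all genes that passed also moved: 56.8% to 59.4% in CAF against NF, 21.4% to 27.8% with TGFb1, and with siHsp90aa1 18.8% to 24.5% in NF and 15.8% to 28.6% in CAF. For siHsp90aa1 against siHsp90ab1 that share was 24.9% to 30.3% in NF and 16% to 27.6% in CAF. CAF against NF had 11 to 19 nuclear members higher, 0 to 1 mitochondrial higher and 2 to 10 lower. TGFb1 had 0 to 2 nuclear higher, 8 to 30 lower and 0 to 4 mitochondrial lower. siHsp90aa1 had 8 to 17 nuclear and 0 to 1 mitochondrial higher in NF, and 1 to 9 nuclear higher in CAF. siHsp90aa1 against siHsp90ab1 had 11 to 22 nuclear higher, 2 to 4 lower and 0 to 1 mitochondrial higher in NF, and 1 to 10 higher and 4 to 6 lower in CAF. Low-level members such as Atp5s, Ndufa4l2 and Cox6a2 rest on few counts.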
